A study of Homo sapiens with 8 samples.

Results

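The regions described here are H3K4me3 regions of HCT8 cells that were called with *V. cholerae* MVs and with *E. coli* MVs but not with mock treatment. Peaks of the 3 H3K4me3 lists that shared at least 1 bp were merged, and a merged region was kept when it held a peak of both MV libraries and no mock peak. This gave 5642 of 39352 regions, or 14.3%. Members were selected on the peak calls, and so on the tags, of all 3 H3K4me3 libraries. Their presence with MVs and absence with mock treatment is therefore the selection itself and was not tested. Of the remaining regions, 17695 were called in all 3 libraries, 4918 only with *V. cholerae* MVs, 6231 only with *E. coli* MVs and 2669 only with mock treatment.

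HCT8 is a human cell line from an ileocecal colorectal adenocarcinoma. The cells were co-cultured for 5 h with membrane vesicles (MVs), spherical particles shed from the bacterial surface, isolated from *V. cholerae* strain C6706, a pathogen, or from *E. coli* K-12 strain MC1061, a non-pathogenic laboratory strain. The control is labelled as untreated in the sample records and is described as a mock treatment in the study's methods. Chromatin was examined by H3K4me3 ChIP sequencing and by FAIRE sequencing, with 1 library per treatment and assay, so no difference has a replicate check, and treatment, culture and library cannot be told apart. Intervals of ratios given below cover the counting error of tags only. Those of shares and medians treat regions as independent of each other, and none covers variation between cultures or libraries.

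Trimethylation of lysine 4 on histone H3 marks the nucleosomes around transcription start sites (TSS) of active genes and of genes poised for activity. It is laid down by SET1 and MLL complexes, which are drawn to unmethylated CpG-rich DNA and to transcribing RNA polymerase II. Weaker and narrower H3K4me3 also occurs at some enhancers and within introns. FAIRE recovers DNA that is depleted of nucleosomes, which is found at active promoters and enhancers.

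The H3K4me3 libraries differed in depth, with 13011839 tags with *V. cholerae* MVs, 10528314 with *E. coli* MVs and 3463875 with mock treatment. Called peaks held 56.1%, 53.9% and 38.6% of these tags in the same order. The list headers give a tag threshold of 11, 10 and 6 tags per peak, and the weakest listed peaks held 9, 8 and 4 tags. The FAIRE libraries held 12077180, 7888670 and 14474665 tags, with 13.9%, 37.3% and 7.12% of them in peaks.

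Sequence is shown first for members of each main kind found below, at and away from protein-coding promoters. SULF2 and CENPB have the strongest start-site regions of those whose sequence could be shown. The regions nearest to ZSCAN9 and CBX8 are the strongest among those far from protein-coding TSS and from mock peaks. The CAPN5 and BCL2L1 regions, added after their values were seen, have the highest and lowest ratio of *V. cholerae* over *E. coli* MVs among the stronger members. Each line gives the central 300 bp on the plus strand of GRCh37 (hg19): chr20:46414040-46414339 for SULF2, chr20:3766956-3767255 for CENPB, chr6:28186533-28186832 for ZSCAN9, chr17:77784308-77784607 for CBX8, chr11:76798884-76799183 for CAPN5 and chr20:30304645-30304944 for BCL2L1. Capitals mark matches, on either strand, to GGGCGGG (SP/KLF), CCGGAAG (ETS) or TGANTCA (AP-1), and no other motif searched matched in these windows.
SULF2: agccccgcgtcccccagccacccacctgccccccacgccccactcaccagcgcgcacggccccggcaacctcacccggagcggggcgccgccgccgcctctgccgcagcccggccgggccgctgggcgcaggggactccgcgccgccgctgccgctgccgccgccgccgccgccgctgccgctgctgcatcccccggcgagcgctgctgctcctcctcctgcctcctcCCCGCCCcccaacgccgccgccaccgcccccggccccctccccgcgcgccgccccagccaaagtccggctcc
CENPB: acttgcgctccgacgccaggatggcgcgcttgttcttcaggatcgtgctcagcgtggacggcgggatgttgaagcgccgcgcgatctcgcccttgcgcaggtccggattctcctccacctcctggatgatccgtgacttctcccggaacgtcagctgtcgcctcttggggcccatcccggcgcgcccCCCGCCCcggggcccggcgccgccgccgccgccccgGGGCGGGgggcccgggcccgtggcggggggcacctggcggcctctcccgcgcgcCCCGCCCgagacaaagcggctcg
ZSCAN9: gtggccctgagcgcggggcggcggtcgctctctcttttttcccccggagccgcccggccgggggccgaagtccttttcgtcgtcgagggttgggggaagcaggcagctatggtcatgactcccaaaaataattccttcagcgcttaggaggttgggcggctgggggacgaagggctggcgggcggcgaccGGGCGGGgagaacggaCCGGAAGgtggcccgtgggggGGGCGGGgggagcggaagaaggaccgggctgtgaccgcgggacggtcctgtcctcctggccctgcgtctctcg
CBX8: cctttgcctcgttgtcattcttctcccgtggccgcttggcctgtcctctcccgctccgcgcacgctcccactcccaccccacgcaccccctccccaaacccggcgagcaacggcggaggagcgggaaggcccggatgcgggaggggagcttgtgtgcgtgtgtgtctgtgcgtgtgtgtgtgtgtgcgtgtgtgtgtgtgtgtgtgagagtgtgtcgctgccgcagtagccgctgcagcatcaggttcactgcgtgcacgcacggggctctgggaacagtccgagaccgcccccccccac
CAPN5: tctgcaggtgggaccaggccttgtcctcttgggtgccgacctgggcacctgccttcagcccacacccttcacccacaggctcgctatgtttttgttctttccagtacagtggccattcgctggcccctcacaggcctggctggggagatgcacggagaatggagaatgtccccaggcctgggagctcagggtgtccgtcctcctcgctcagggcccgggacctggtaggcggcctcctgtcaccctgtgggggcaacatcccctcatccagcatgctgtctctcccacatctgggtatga
BCL2L1: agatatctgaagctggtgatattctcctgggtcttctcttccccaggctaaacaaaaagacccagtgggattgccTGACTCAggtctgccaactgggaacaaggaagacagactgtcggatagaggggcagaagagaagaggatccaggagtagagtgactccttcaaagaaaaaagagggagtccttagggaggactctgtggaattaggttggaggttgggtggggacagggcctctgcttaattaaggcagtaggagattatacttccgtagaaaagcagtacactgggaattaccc

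The SULF2 window holds the TSS of that gene, has a GC content of 83.3% and contains 44 CpG dinucleotides. CENPB, whose window lies beside its TSS, has 75.3% GC and also 44 CpG. ZSCAN9 has 70% GC and 32 CpG in its window, in a region that holds the annotated start of the pseudogene TOB2P1. The CBX8 window has 67% GC and 26 CpG, in a region that holds the annotated start of the miRNA gene AC100791.2. By contrast, the CAPN5 window has 62.7% GC but only 8 CpG, and the BCL2L1 window has 49% GC, 2 CpG and a match to the AP-1 motif.

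Most of the regions were narrow and weak. Their median width was 934 bp, with the middle 50% between 721 and 1300 bp and a largest width of 6308 bp, whereas regions called in all 3 libraries had a median width of 2311 bp. Normalised tag counts, scaled by the authors to 10000000 tags per library, had a median of 18.4 with *V. cholerae* MVs (quartiles 12.3 and 31.5) and 19.0 with *E. coli* MVs (quartiles 13.3 and 30.4). Regions called in all 3 libraries had medians of 258.2 and 221.3 normalised tags with the same MVs. The median enrichment over input was 8.73-fold with *V. cholerae* MVs and 8.74-fold with *E. coli* MVs, against 22.8-fold and 21.1-fold in regions of all 3 libraries. In whole tags, a typical member rested on 24 tags with *V. cholerae* MVs and 20 tags with *E. coli* MVs.

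Only 61 members (1.08%) averaged over 100 normalised tags across both MV libraries, against 63.5% of the regions called in all 3 libraries. The members took up 19.4% of all peaks called with *V. cholerae* MVs and 18.1% of those called with *E. coli* MVs, yet 2.65% and 2.59% of the tags in those peaks. They were thus numerous and small. A single peak of each MV library made up 98.6% of them. Regions called with 1 kind of MV alone, or with mock treatment alone, were narrower still, with a median width of 500 bp, the smallest size that the caller reports.

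At the rule's edge, the weakest members were regions near FBLIM1 and GPC1 that held 10 tags with *V. cholerae* MVs and 8 tags with *E. coli* MVs. The member nearest to a mock peak lies by SPATS2L at a gap of 1 bp, and 33 members lay under 100 bp from a mock peak. Just outside the rule, 7 regions called in all 3 libraries held the 4 tags that are the fewest in the mock list. Of these, the strongest were regions in NOTCH3, with 102 and 56 tags, at GP1BB, with 81 and 37 tags, and at PLK5, with 92 and 26 tags with *V. cholerae* and *E. coli* MVs. Members and neighbours of the rule can therefore differ by a few mock tags.

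**Figure D1:**
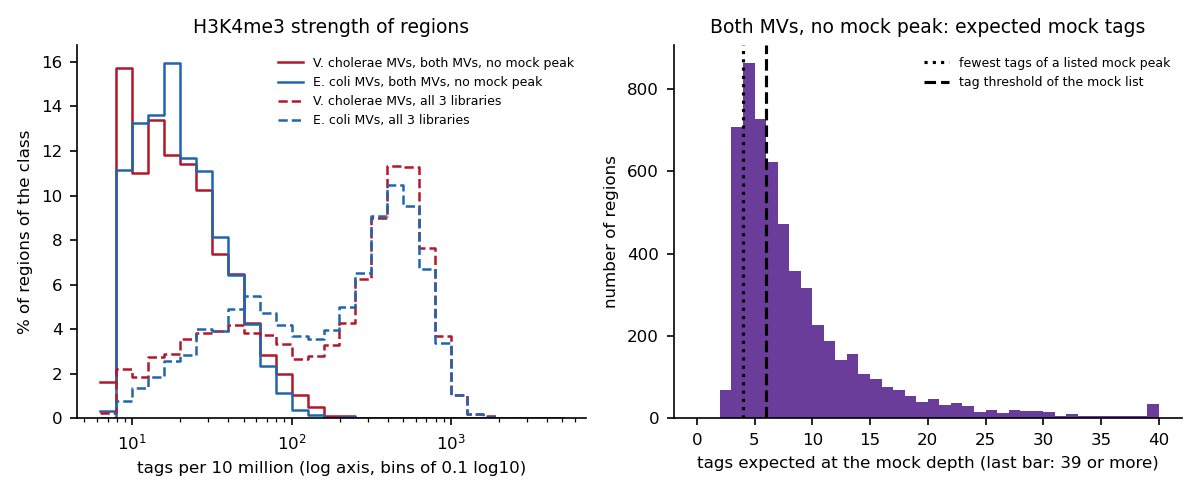
Left, share of regions (%) by normalised H3K4me3 tags per 10000000 tags (log axis) with *V. cholerae* MVs (red) and *E. coli* MVs (blue), for regions with both MVs and no mock peak (solid) and regions of all 3 libraries (dashed). Right, number of regions with both MVs and no mock peak by the tags expected at the depth of the mock library, with the fewest tags of a listed mock peak (4, dotted) and the threshold of the mock list (6, dashed); the median is 6.68 expected tags.

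Because the mock library was the shallowest, each member was asked how many mock tags it would have at the density seen with MVs. The expected number, averaged over both MV libraries, had a median of 6.68 tags and ranged between 2.65 and 195.7 tags. It fell under 4 tags, the fewest of any listed mock peak, in 777 members (13.8%, 95% interval 12.9–14.7%). It fell under 6 tags, the threshold of the mock list, in 2367 members (42.0%, 95% interval 40.7–43.3%). Taking the stronger MV library in place of the mean gave 30.4% under 6 tags, and taking the weaker one gave 61.7%. These numbers are sums over peaks of unequal width. Per 500 bp of called peak, the smallest size that the caller reports, 4739 members (84.0%) had under 6 expected tags. This is a mean over the whole called peak, and its densest stretch can hold more, while the threshold applies to the tags of a peak. The share is thus not a count of members that would be missed.

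At the other end, 1155 members (20.5%) had an expected number above 11.7 tags, the upper 95% Poisson limit when 5 tags, 1 under the threshold, are observed. Per 500 bp of called peak 46 members (0.82%) did. Expected numbers of 20 or more occurred in 351 members, 50 or more in 12 and 100 or more in 1. The mock header states that 16 putative peaks were removed as too clonal and 41 by comparison with input, and the positions of these were not analysed here. Strong regions without a counterpart also occurred in the other direction, since 1 region called only with mock treatment held 214 tags.

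Expected numbers also depended on base composition. In strong regions called in all 3 libraries (60 or more normalised tags on average), the median log2 ratio of the MV mean over mock was 0.00 below 45% GC, 0.40 at 45 to 55%, 0.90 at 55 to 65% and 1.41 at 65% or more. Over all GC contents this ratio was 0.59, so scaling by it takes in a general difference between libraries as well as base composition. Only 322 members averaged 60 or more normalised tags, so for most members the ratio comes from stronger regions. Scaling each member's expected tags by the ratio at its own GC content, an alternative chosen after the data were examined, left a median of 5.10 tags. The members under 6 tags then numbered 3450 (61.1%), those under 4 tags 1834 (32.5%) and those above 11.7 tags 469 (8.31%). Among members with 55% GC or more, 67.3% fell under 6 tags with this scaling and 26.5% without it. Among members below 45% GC the shares were 49.4% with it and 54.1% without it. What produced the ratio between libraries at high GC was not tested.

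Promoters made up a minority of the regions. A protein-coding TSS lay within 1 kb of 1139 members (20.2%, 95% interval 19.1–21.3%), and 835 (14.8%) held the TSS itself. Regions called in all 3 libraries were at a protein-coding TSS in 64.7% of cases, those with *V. cholerae* MVs only in 13.4%, those with *E. coli* MVs only in 6.97% and those with mock treatment only in 6.14%. Introns of protein-coding genes held 2109 members (37.4%) and intergenic DNA 1318 (23.4%). The TSS of a lncRNA, pseudogene or other non-coding gene lay within 1 kb of 483 (8.56%), lncRNA gene bodies held 418 (7.41%) and exons of protein-coding genes 175 (3.10%).

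Distance to the nearest protein-coding TSS was 1 to 5 kb for 864 members (15.3%) and over 5 kb for 3639 (64.5%), with a median over all members of 10814 bp. In regions called in all 3 libraries 28.9% lay over 5 kb away. A region that shared a base with a mock peak could not be a member, so joined extensions of mock peaks were left out by the rule. Of the members, 357 (6.33%) lay within 1 kb of a mock peak, 991 (17.6%) lay 1 to 5 kb away and 4294 (76.1%) farther, with a median gap of 16995 bp. Regions with *V. cholerae* MVs only lay within 1 kb in 7.10% of cases, with a median gap of 17302 bp. For regions with *E. coli* MVs only the values were 8.47% and 17800 bp. Members within 1 kb of a mock peak had a median GC content of 46.2%, and those over 5 kb away 50.3%.

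**Figure D2:**
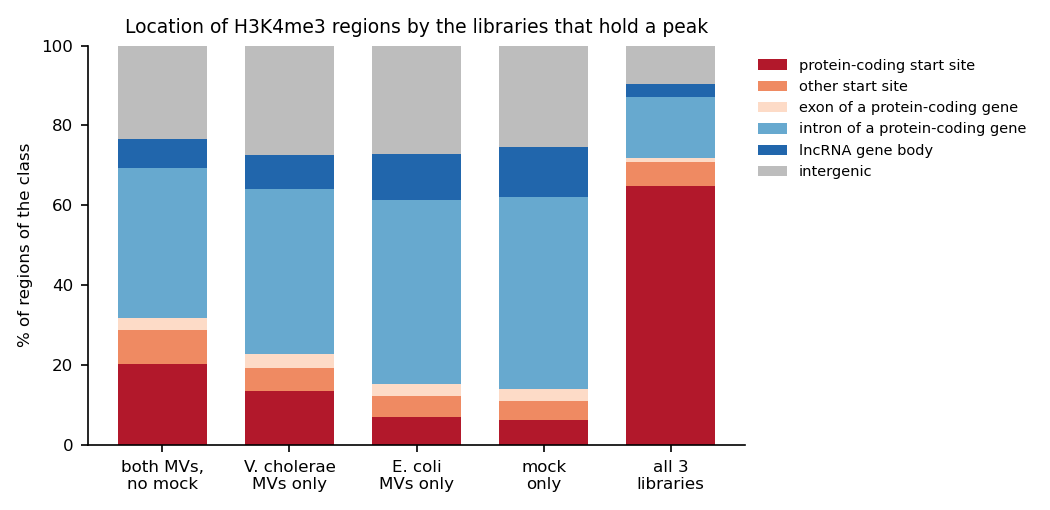
Share of H3K4me3 regions (%, stacked bars) by location, for regions called with both MVs and not mock, with 1 kind of MV only, with mock only and in all 3 libraries. Regions with both MVs and no mock peak are at protein-coding start sites in 20.2% of cases, below the 64.7% of regions of all 3 libraries.

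Start-site members were stronger than the rest. They had median normalised tags of 30.7 with *V. cholerae* MVs and 23.7 with *E. coli* MVs, against 15.4 and 18.0 in intronic members and 16.9 and 18.0 in intergenic ones. Their median GC content was 60.4%, above the 53.8% of start-site regions called in all 3 libraries. They were the widest as well, at a median of 1136 bp.

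Both kinds of MV gave similar strengths across the members as a whole. However, every member had to hold a peak of both MV libraries. Regions called only with *V. cholerae* MVs (4918) or only with *E. coli* MVs (6231) were left out by this rule. The similarity is therefore partly set by the selection, and how far was not tested. The median log2 ratio of *V. cholerae* over *E. coli* MVs was 0.033 (rank-based 95% interval 0.0026 to 0.057), and its sign depended on the scaling, being -0.026 after scaling to the tags in peaks. The exact interval of the ratio lay above 0 in 846 members (14.99%), where 24.7% of all 23337 regions with a peak of both MVs did so, and below 0 in 674 (11.9%), where 14.9% of those regions did so. The median interval was 1.91 log2 units wide in members and 0.49 in regions called in all 3 libraries, so the tags of members allowed fewer calls.

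The balance between both MVs differed within the members by place and by base composition. Over all 23337 regions with a peak of both MVs, 24.7% were higher with *V. cholerae* MVs and 14.9% lower. At protein-coding TSS the median log2 ratio of members was 0.35, with 337 of 1139 (29.6%) higher with *V. cholerae* MVs and 68 (5.97%) lower. In introns it was -0.14, with 204 of 2109 (9.67%) higher and 331 (15.7%) lower. In the 25% of members with the highest GC content (median 63.5%) the median log2 ratio was 0.45, with 478 (33.9%) higher and 29 (2.06%) lower of 1411. The 25% with the lowest GC content (median 39.4%) had -0.41, with 30 (2.13%) higher and 342 (24.2%) lower. These ratios are of tag sums over peaks called separately in each library, and called widths differed, with medians of 983 and 816 bp with *V. cholerae* and *E. coli* MVs at TSS and of 625 and 702 bp at the lowest GC content. Per bp of called peak, an alternative chosen after the data were examined, the medians were 0.10 at TSS, -0.11 in introns, 0.18 at the highest and -0.21 at the lowest GC content. Between 15 and 60 normalised tags, regions called in all 3 libraries had similar ratios of tag sums. At 55% GC or more the median log2 ratio was 0.49 in members and 0.45 in regions of all 3 libraries. There 34.4% of members were higher and 3.16% lower, against 35.4% and 2.16% of regions of all 3 libraries. Below 45% GC the median was -0.57 in members and -0.58 in regions of all 3 libraries. There 4% of members were higher and 37.4% lower, against 2.47% and 42.5% of regions of all 3 libraries. Strength was not matched within this range. Its medians were 27.4 normalised tags in members and 39.5 in regions of all 3 libraries at 55% GC or more. Below 45% GC they were 21.4 and 30.35. Location, GC content and library cannot be told apart as sources of these ratios.

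**Figure D3:**
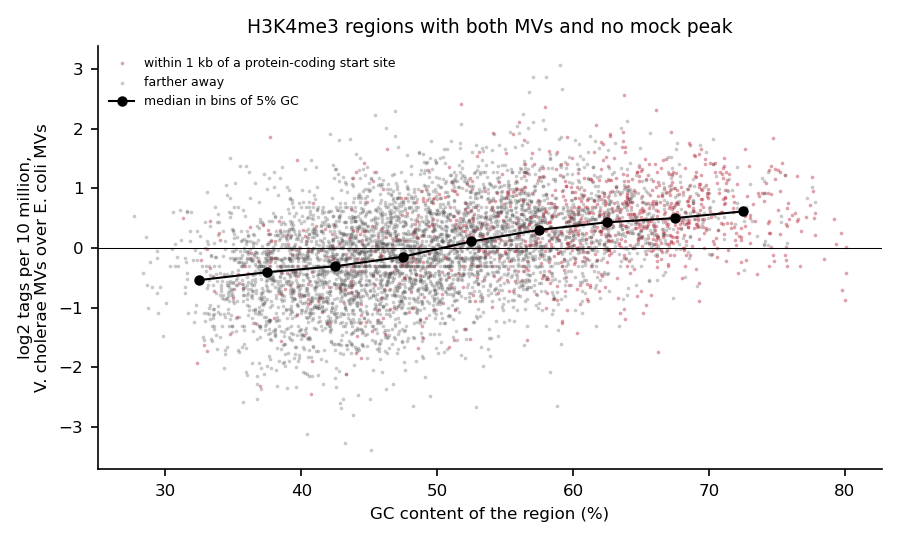
Log2 ratio of normalised H3K4me3 tags with *V. cholerae* MVs over *E. coli* MVs (vertical axis) against GC content (%, horizontal axis) for each of the 5642 regions with both MVs and no mock peak, with start-site regions in red and all others in grey. Black points, medians in bins of 5% GC, lie below 0 at low GC and above 0 at high GC.

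Among members in the upper 50% of mean normalised tags, the ends of this scale were regions whose called width differed between the libraries. The CAPN5 region (chr11:76797370-76800698), in a gene for a calcium-dependent protease, had 104 tags over 3328 bp with *V. cholerae* MVs and 10 tags over 500 bp with *E. coli* MVs, and its log2 ratio was 3.07 (2.14 to 4.18). Per 1000 bp of called peak it had 24.0 and 19.0 normalised tags, and it was enriched 6.35-fold and 8.3-fold over input with the same MVs. The ratio is thus mainly one of called width. Regions in EVL, ARHGEF10L and ABR had log2 ratios between 2.67 and 2.86, which were 0.38, 1.06 and 1.02 per bp, and their enrichment over input was lower with *V. cholerae* MVs (5.61-fold, 6.65-fold and 4.7-fold) than with *E. coli* MVs (21.6-fold, 9.13-fold and 13.3-fold). These 4 regions had 57.0 to 59.2% GC and each overlapped a FAIRE peak of the *E. coli* MV library.

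At the opposite end, the intronic BCL2L1 region (chr20:30303467-30306124), in the gene of an inhibitor of apoptosis, had 9 tags over 500 bp with *V. cholerae* MVs and 76 tags over 2657 bp with *E. coli* MVs, and its log2 ratio was -3.38 (-4.57 to -2.38), or -0.97 per bp of called peak. Its enrichment over input was 12.1-fold with *V. cholerae* MVs and 6.31-fold with *E. coli* MVs. Regions in ARHGAP35 and TRIM2 and between genes near KPNA3 had log2 ratios of -3.27, -2.80 and -3.11, which were -0.74, -0.38 and -1.02 per bp. Their GC content was 40.4 to 45.1%, BCL2L1 included, and none overlapped a FAIRE peak of the *E. coli* MV library.

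FAIRE, which the selection did not use, gave a second view of the same places. A FAIRE peak of at least 1 library overlapped 3694 members (65.5%). With *V. cholerae* MVs it was 2346 members (41.6%, 95% interval 40.3–42.9%), with *E. coli* MVs 3247 (57.6%, 56.2–58.8%) and with mock treatment 1011 (17.9%, 16.9–18.9%). Regions called in all 3 libraries showed 65.4%, 78.8% and 31.7% in the same order, and those called with mock treatment only 13.7%, 14.6% and 6.22%. The order of the libraries was thus the same in members and in regions called in all 3, and the FAIRE lists themselves differ, with 55.7 Mb covered by peaks of the *V. cholerae* MV library, 98.2 Mb of the *E. coli* MV library and 39.2 Mb of the mock library.

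A FAIRE peak with both MVs and none with mock treatment was present at 1327 members (23.5%), a FAIRE peak in all 3 libraries at 654 (11.6%) and none in any at 1948 (34.5%). Regions called in all 3 libraries had the first pattern in 35.5% of cases and the last in 17.1%. In the 654 members with a FAIRE peak of every library, the median normalised FAIRE tags were 26.5 with *V. cholerae* MVs, 65.9 with *E. coli* MVs and 13.1 with mock treatment. The FAIRE level was above mock in 560 of them with *V. cholerae* MVs and in 640 with *E. coli* MVs. In the 4697 such regions among those called in all 3 H3K4me3 libraries these counts were 4440 and 4676.

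The comparison of FAIRE overlap within a range of H3K4me3 strength depended on the range. Between 15 and 30 normalised tags, 41.02% of members had a FAIRE peak with *V. cholerae* MVs, 56.6% with *E. coli* MVs and 16.6% with mock treatment, against 31.3%, 35.5% and 12.5% of regions called in all 3 libraries. At 60 or more normalised tags the shares were 64.9%, 95.3% and 32.3% in members and 76.7%, 93.1% and 38.2% in regions of all 3 libraries, so that members were lower with *V. cholerae* MVs and with mock treatment. This range has no upper limit, and the median width in it was 1938 bp in members and 2694 bp in regions of all 3 libraries. The sets of 15 to 30 normalised tags also differed in GC content, with medians of 49.4% in members and 42.5% in regions of all 3 libraries. Within a range of GC content the gap was small and ran the other way. At 55% GC or more, between 15 and 60 normalised tags, the FAIRE shares were 57.6%, 94.0% and 27.3% in members and 60.6%, 94.4% and 30.6% in regions of all 3 libraries. Below 45% GC they were 18.6%, 14.6% and 6.15% in members and 21.9%, 17.2% and 7.33% in regions of all 3 libraries. Members were the weaker set in both GC ranges. Their median was 27.4 normalised tags against 39.5 at 55% GC or more, and 21.4 against 30.35 below 45% GC.

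**Figure D4:**
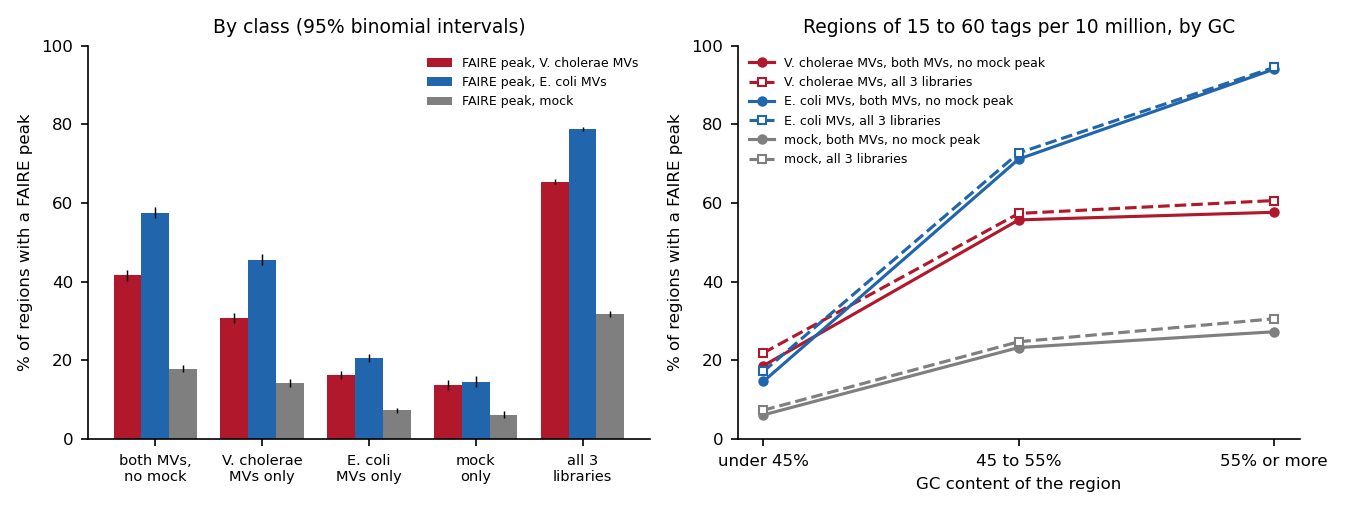
Left, share of H3K4me3 regions (%) with a FAIRE peak of *V. cholerae* MVs (red), *E. coli* MVs (blue) and mock (grey) by class, with exact 95% binomial intervals as error bars. Right, the same shares in regions of 15 to 60 normalised tags by GC content, for regions with both MVs and no mock peak (filled circles, solid) and of all 3 libraries (open squares, dashed), which lie close together within each GC range.

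Median GC content was 49.9% in members, 51.2% in regions called in all 3 libraries, 49.97% in those with *V. cholerae* MVs only, 41.9% in those with *E. coli* MVs only and 40.3% in those with mock treatment only. CpG-rich sequence, taken as 50% GC or more with an observed over expected CpG ratio of 0.6 or more, made up 13.9% of members and 31.9% of regions called in all 3 libraries. At start sites it was 41.7% of members and 44.3% of regions of all 3 libraries.

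The central 300 bp were searched on both strands for 6 short motifs. The AP-1 motif TGANTCA, bound by FOS and JUN dimers, was present in 16.1% of members and in 13.3% of all regions. The share was 8.93% in regions called in all 3 libraries, but 17.01% in those called with mock treatment only. In regions called with *V. cholerae* MVs only it was 16.02%, and with *E. coli* MVs only 17.3%. The AP-1 motif was thus not more frequent in members than in regions called with mock treatment only. It was found in 18.5% of members over 5 kb from a TSS and in 17.5% of regions of all 3 libraries at that distance, and in 8.60% of members at a TSS. The SP/KLF motif GGGCGGG, common in CpG-island promoters, was present in 13.5% of members and 14.6% of all regions, with 32.6% at a TSS and 8.19% over 5 kb away. Over 5 kb from a TSS, it was found in 12.3% of members with a FAIRE peak (median GC 51.9%) and in 2.12% of those without one (median GC 41.8%). The remaining motifs were found in few members: the NF-kB motif GGGANTTTC in 1.51% (1.17% of all regions), the ETS motif CCGGAAG in 2.89% (3.63%), the CRE TGACGTCA in 0.39% (0.40%) and the TCF/LEF motif CTTTGATN in 4.93% (4.81%). No match of one motif can contain a match of another.

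Of 20098 protein-coding genes, 1133 had a member within 1 kb of a TSS. In 483 of these genes a mock peak also lay within 1 kb of a TSS. The remaining 650 genes (3.23% of all protein-coding genes) had a listed H3K4me3 peak at a TSS with both MVs and none with mock treatment. They were 8.17% of the 7954 genes without any mock peak at a TSS. Counted by peaks of the libraries alone, 696 genes had a peak at a TSS in both MV libraries and none in mock. In the other direction, 29 genes had a mock peak at a TSS and none with either MV. The mock library was the shallowest of the 3, with 3463875 tags.

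These 650 genes had median normalised tags of 36.9 with *V. cholerae* MVs and 25.6 with *E. coli* MVs. The ratio was higher with *V. cholerae* MVs in 244 and lower in 18, with a median log2 ratio of 0.48, or 0.20 per bp of called peak. A FAIRE peak overlapped the member at 307 genes with *V. cholerae* MVs, at 543 with *E. coli* MVs and at 142 with mock treatment. By depth, 129 genes had under 6 expected mock tags and 301 had more than 11.7. With expected tags scaled by GC content as above, 370 had under 6 and 85 more than 11.7, and per 500 bp of called peak 377 had under 6 and 25 more than 11.7.

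The strongest of them shared a promoter. CHCHD7, a gene of a mitochondrial intermembrane-space protein, and PLAG1, a zinc finger transcription factor and oncogene of salivary gland tumours, are transcribed divergently from one region on chromosome 8 (GRCh37, 57122424 to 57125821). It held 625.6 normalised tags with *V. cholerae* MVs and 504.4 with *E. coli* MVs, where 195.7 mock tags would be expected at the depth of that library. It overlapped FAIRE peaks of both MV libraries, at 39.7 and 95.1 normalised FAIRE tags, and none of mock. The nearest mock H3K4me3 peak lay 35920 bp away.

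SULF2, whose product removes sulphate groups from heparan sulphate at the cell surface, came next (chr20:46412689-46415691). It had 286.7 normalised tags with *V. cholerae* MVs and 228.0 with *E. coli* MVs, and the log2 ratio was 0.33 (0.09 to 0.57). CENPB, a centromere DNA-binding protein, had 204.4 with *V. cholerae* MVs and 234.6 with *E. coli* MVs, and the interval of its log2 ratio spanned 0 (-0.45 to 0.06). NINJ2, an adhesion protein induced in injured nerve, had 219.8 and 190.9 normalised tags with the same MVs. All 3 lacked a FAIRE peak of mock and had one with *E. coli* MVs.

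In a further group the tag sums were higher with *V. cholerae* MVs. ALKBH7, a mitochondrial member of the AlkB family, had 235.9 normalised tags with *V. cholerae* MVs and 143.4 with *E. coli* MVs, and the log2 ratio was 0.72 (0.43 to 1.01). SOCS3, an inhibitor of JAK-STAT signalling by cytokines, had 212.9 with *V. cholerae* MVs and 128.2 with *E. coli* MVs, and the log2 ratio was 0.73 (0.43 to 1.04). TEF, a bZIP transcription factor of circadian output, had a log2 ratio of 0.72 and SAMD11 had 1.02, each summed over 2 start-site members. FAIRE peaks of all 3 libraries overlapped the regions of these 4 genes.

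The last of the 12 strongest genes had near-equal signal with both MVs. FOXD1, a forkhead factor of kidney and retina development, had 146.0 normalised tags with *V. cholerae* MVs and 145.3 with *E. coli* MVs, and NANOS1, an RNA-binding repressor of translation, had 135.3 and 137.7. HUNK, a kinase related to AMPK, had 174.5 and 144.4, with an interval of the log2 ratio of -0.03 to 0.58.

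**Figure D5:**
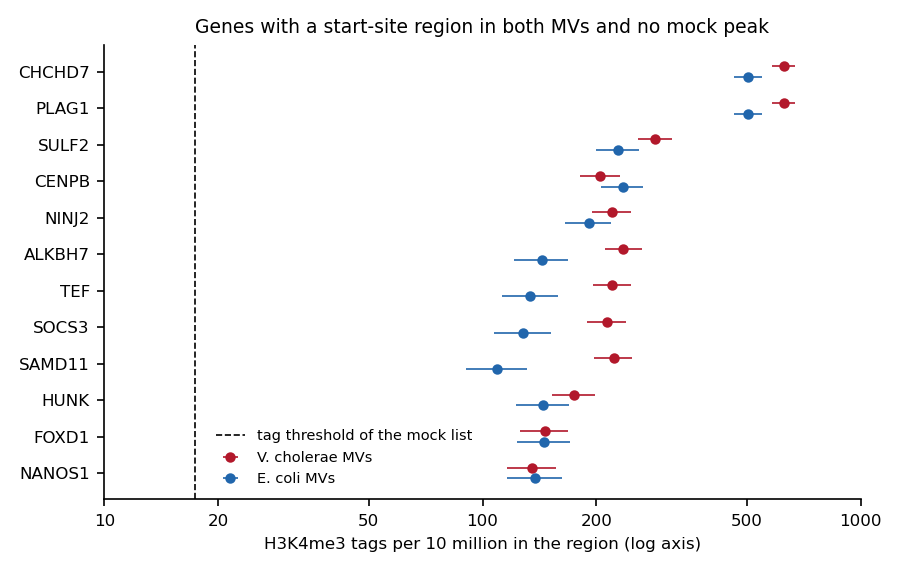
Normalised H3K4me3 tags (log axis) at the 12 genes with the strongest start-site region called with both MVs and not mock, with *V. cholerae* MVs (red, above) and *E. coli* MVs (blue, below) and exact 95% Poisson intervals. All points lie right of the dashed line, the threshold of the mock list on this scale. CHCHD7 and PLAG1 share 1 region, and the values of TEF and SAMD11 are sums over 2 regions each.

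Gene lists were described by the number of genes that gained a start-site region in this way, against 3.23% of all protein-coding genes, and no list was tested. None of 15 genes named in the study gained one, nor did any of 14 housekeeping genes, since all of them had a mock peak. Of 34 AP-1 and immediate-early genes, 30 had a mock peak and 1 gained a region. That gene was BATF2, a partner of JUN proteins. Summed over its 2 start-site members, it had 78.3 normalised tags with *V. cholerae* MVs and 91.1 with *E. coli* MVs.

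Among inflammatory genes, 3 of 31 NF-kB and TNF targets (9.68%) gained a region. TNFRSF9, a co-stimulatory receptor of the TNF family, had 59.2 normalised tags with *V. cholerae* MVs and 66.5 with *E. coli* MVs and no FAIRE peak in any library. PTGS2, the inducible cyclooxygenase of prostaglandin synthesis, had 33.0 and 32.3 with a FAIRE peak in all 3, and TNFAIP2 had 20 and 24.7. In 32 cytokine and chemokine genes the count was 4 (12.5%). CX3CL1, a membrane-bound chemokine, had 70.7 normalised tags with *V. cholerae* MVs and 57.9 with *E. coli* MVs. CSF2, which encodes the growth factor GM-CSF, had 66.9 with *V. cholerae* MVs and 36.1 with *E. coli* MVs, where the log2 ratio was 0.89 (0.32 to 1.48), but 23.4 and 29.9 per 1000 bp of called peak. CXCL5, a neutrophil chemokine, had 25.4 and 9.5, the latter under the 11.5 normalised tags of the weakest listed mock peak. At such weak regions a missing mock peak does not show missing H3K4me3. IL33, an alarmin of epithelia, had 8.45 and 9.5, where 3.11 mock tags would be expected.

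Among 25 genes of bacterial sensing, 2 (8%) gained a region. TLR5, the receptor of flagellin, had 76.9 normalised tags with *V. cholerae* MVs and 32.3 with *E. coli* MVs. Its log2 ratio was 1.25 (0.68 to 1.86), or 0.19 per bp of called peak, with FAIRE peaks of both MV libraries and none of mock. NOD2, a cytosolic sensor of muramyl dipeptide, had 33 tags with *V. cholerae* MVs and 10 tags with *E. coli* MVs. The latter are 9.5 normalised tags, under the 11.5 of the weakest listed mock peak. Of 25 interferon-response genes only IFITM3, a restriction factor of virus entry, gained one, at 43.0 and 48.4 normalised tags.

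Of 38 genes of intestinal differentiation, 18 had a mock peak and 3 (7.89%) gained a region. These were SPDEF, a transcription factor of goblet cells, with 43.8 normalised tags with *V. cholerae* MVs and 10.4 with *E. coli* MVs, TFF1, a secreted trefoil peptide, with 25.4 and 16.1, and FABP1, a fatty acid carrier of enterocytes, with 20.8 and 12.3. The SPDEF log2 ratio was 2.07 (1.12 to 3.15) over peaks of 1052 bp with *V. cholerae* MVs and 500 bp with *E. coli* MVs, and 0.99 per bp of called peak, while enrichment over input was 5.47-fold and 9.13-fold. Its region had FAIRE peaks in all 3 libraries. The log2 ratio per bp of called peak was -0.52 for TFF1 and -0.08 for FABP1. Their peaks spanned 1128 and 889 bp with *V. cholerae* MVs, and 500 bp each with *E. coli* MVs. The weakest listed mock peak had 11.5 normalised tags. With *E. coli* MVs, SPDEF was under this value and FABP1 near it, so a missing mock peak there does not show missing H3K4me3. CLDN1, a tight junction claudin, was the only one of 25 junction and polarity genes, with 27.7 and 15.2. BEST2, a chloride channel, was the only one of 24 ion transport genes, with 33.8 and 17.1. For CLDN1 and BEST2 the log2 ratios per bp of called peak were -0.04 and 0.07.

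Developmental and channel genes were described in the same way. Of 80 developmental transcription factors, 28 had a mock peak and 6 (7.5%) gained a region (MEIS2, TBX1, LHX1, SOX14 and PAX6 among them). MEIS2, a homeobox partner of HOX proteins, had 116.8 normalised tags with *V. cholerae* MVs and 78.8 with *E. coli* MVs. Of 45 ligands and antagonists of the WNT, BMP, FGF, Hedgehog and Notch pathways, 8 (17.8%) gained one (IHH, FGF19, WNT9A, CHRD, DKK1, BMP8A, FGF3 and BMP7). IHH, the hedgehog ligand of differentiated colon epithelium, had 136.8 and 117.8 normalised tags. FGF19, a hormone of ileum that represses bile acid synthesis, had 83.0 and 55.1, summed over 2 start-site members. Of 30 potassium and calcium channel genes, 3 had a mock peak and 4 (13.3%) gained a region, among them CACNG4 at 128.3 and 84.5, KCNA2 at 41.5 and 24.7, and CACNA1C at 39.2 and 23.7. As a share of the genes without a mock peak, the lists gave 6 of 52 developmental factors, 8 of 24 ligands, 4 of 27 channels, 3 of 10 NF-kB and TNF targets, 4 of 17 cytokines and chemokines, 2 of 12 genes of bacterial sensing and 3 of 20 of intestinal differentiation, against 8.17% of all such genes. The share of genes with a mock peak thus differed between lists, and nothing is read from their order. The genes that gained a region had median normalised tags over both MVs of 61.4 among developmental factors, 35.3 among ligands, 41.3 among channels and 30.6 among all 650 genes.

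As a check on other cell types, none of 12 genes of blood cells had a member at a TSS without a mock peak. Of 14 annotated genes that mark connective tissue, vessels, muscle, nerve or liver, 2 (14.3%) did, against 8.17% of all genes without a mock peak. These were COL1A1, with 14.6 normalised tags with *V. cholerae* MVs and 17.1 with *E. coli* MVs, and RBFOX3 with 16.9 and 8.55. Their expected mock tags were 5.49 and 4.41, where the median of all members was 6.68. No mock peak was present at any gene of these 2 lists.

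Away from protein-coding promoters, 2947 members lay over 5 kb from every protein-coding TSS and every mock peak, with a median of 18.0 normalised tags across both MVs. The strongest, nearest to ZSCAN9 (chr6:28185983-28187384) and at the start of the pseudogene TOB2P1, had 129.9 normalised tags with *V. cholerae* MVs and 128.2 with *E. coli* MVs. The CBX8 region (chr17:77782679-77786238), near a gene of a Polycomb chromobox protein, had 127.6 and 100.7. It held the annotated start of the miRNA gene AC100791.2. A region at the start of the lncRNA LINC02352 (chr15:31507370-31509468), nearest to TRPM1, had 140.6 and 76.9, a log2 ratio of 0.87 (0.49 to 1.27). The region nearest to PLXNC1 (chr12:94495130-94496510) was intergenic, and that nearest to EDC3 (chr15:74933537-74936731) lay over an exon, with 88.4 normalised tags with *V. cholerae* MVs and 120.6 with *E. coli* MVs. All 5 overlapped a FAIRE peak of the *E. coli* MV library, 2 one of the *V. cholerae* MV library and 1 one of mock.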

How the data were processed

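H3K4me3 and FAIRE peak lists of 6 libraries were used, 1 per treatment and assay. Values of the 2 input samples were not used on their own. The submitters' processing notes list hg19, Bowtie 1.1.2, SAMtools 1.3.1 and HOMER 4.7.2, whereas the paper's methods name Bowtie 2 and both MACS and HOMER. Per the file headers, peaks were called in each library in histone mode, with a minimum of 4-fold over the input library, a Poisson p of 0.0001 and at most 1 tag per bp. The deposited normalized tag count is a signal per 10000000 tags, the deposited total tags are counts (scaled to the input in 2 H3K4me3 lists), and the authors' fold is the ratio of peak to input.

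Whole tags were recovered from normalized tag counts and library totals (largest distance from a whole number 0.0721). A region's value is the sum of its peaks, and the tags of a gene with several start-site members are summed over these. Ratios have exact conditional binomial 95% intervals for counting error only. Shares have Clopper-Pearson intervals and medians rank-based intervals, both of which treat regions as independent. Tags can be PCR copies of one molecule, which these intervals do not allow for. With 1 library per treatment no test was run. Genes come from GENCODE release 44 on GRCh37, chromosomes 1 to 22 and X, where 1 of the listed genes, PECAM1, was not found. Regions, gene lists (15) and rules were chosen with earlier results of these data known. Named genes are the 12 strongest that gained a start-site region, at most 4 per list, the 5 strongest distal regions, the 4 highest and 4 lowest ratios in the stronger 50% of members, and regions at the edge of the rule. Some of these genes are not reported by name here. Merging, distances and intervals were tested on simulated data. Python 3.11.15, pandas 2.3.3, NumPy 2.4.6, SciPy 1.17.1 and Matplotlib 3.10.9 were used.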

Additional observations from a re-analysis of the deposited data

How the results depend on the processing

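No paired analysis was possible because no treatment has more than 1 library of an assay. The values depended most on the strength asked of a peak. With H3K4me3 peaks at 8-fold or more over input, 2785 members remained, 29.4% of them at a TSS and 4.38% beside a mock peak, at a median of 18.55 normalised tags. Of these, 46.0% had under 6 expected mock tags, 60.7% and 19.1% overlapped FAIRE peaks with *E. coli* MVs and mock treatment, and the median log2 ratio was 0.14, with 513 higher and 175 lower. Keeping members with 6 or more expected mock tags in both MV libraries left 2163, with a median width of 1297 bp and 34.3 normalised tags, 30.8% at a TSS, 5.04% beside a mock peak and by construction 0% under the threshold. Their FAIRE shares were 53.7%, 76.1% and 24.6% with *V. cholerae* MVs, *E. coli* MVs and mock treatment, 417 genes gained a region, and the median log2 ratio was 0.16, with 468 higher and 177 lower. In the main setting, 24.7% of all regions with a peak of both MVs were higher and 14.9% lower. These shares were not recomputed for either smaller set. Dropping MV peaks below 4 expected mock tags before merging gave 3635 members. Joining peaks only at 50% overlap of the shorter gave 8.73% beside a mock peak, a median of 19.7 normalised tags and 40.3% under 6 expected tags. Joining peaks up to 1000 bp apart gave a median width of 985 bp and by construction 0% beside a mock peak. Scaling expected tags to GC content gave 61.1% under 6.

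The median log2 ratio reversed to -0.026 when scaled to tags in peaks, to -0.029 when centred on regions of all 3 libraries and to -0.045 per 1000 bp of called peak, so no direction is read from it. The share at a TSS was 17.7% within 500 bp, 26.5% within 2500 bp and 28.7% for all annotated genes. FAIRE shares with *V. cholerae* MVs, *E. coli* MVs and mock treatment were 30.3%, 34.7% and 12.5% when 50% of the FAIRE peak had to lie in the region, 3.403%, 12.2% and 0.92% for FAIRE peaks at 8-fold or more, and 37.2%, 54.6% and 14.3% over bases covered by both MV libraries. In the centre of those bases the AP-1 motif was found in 14.4%. In the other 35 of 81 recomputed values the result stayed within its interval or within 1.5 times its count.

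Presence in 1 library per treatment, a mock library with 3463875 tags and the differing share of tags in peaks limit these values. Weak members rest on few tags, so a missing mock peak does not show missing H3K4me3.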

Other observations

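The members were spread over all chromosomes examined. They made up between 11.7% of the H3K4me3 regions on chromosome 12 and 18.2% on chromosome 21. Per megabase they were most frequent on chromosome 19, at 4.68, and chromosome 17, at 4.11, and least frequent on the X chromosome, at 0.63. Among the members with the most expected mock tags that were not named above, a region in BCOR on the X chromosome, the gene of a transcriptional corepressor, had 245.9 normalised tags with *V. cholerae* MVs and 206.1 with *E. coli* MVs at 1367 bp from the nearest mock peak. A region at RXRA, the retinoid X receptor, was the widest of all members at 6308 bp, with 208.3 and 140.6 normalised tags, and overlapped FAIRE peaks with *E. coli* MVs at 754.2 normalised FAIRE tags and with mock treatment at 10.4.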
